A study of Arabidopsis thaliana with 12 samples.

Results

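Wild-type Arabidopsis thaliana seedlings of the accession Col-0 were compared at 14 days and at 12 days of age. The comparison rests on 4 ATH1 arrays, 2 per age, out of 12 arrays in the series, and was made across all 22746 probe sets other than the manufacturer's controls. Seeds had been kept in the cold before sowing, and plants of both ages grew on agar with 1% sucrose. RNA was taken as total RNA with a Qiagen RNeasy plant kit and hybridised 1 sample to an array. The other 8 arrays, 2 per group, came from ein2 seedlings at 14 days and, at 12 days, from aba2 and etr1 seedlings and a further wild type, Col-7. EIN2 carries the ethylene signal past the receptors, ETR1 is one of those receptors, and ABA2 is an enzyme of abscisic acid synthesis. The series as a whole addresses crosstalk between abscisic acid and ethylene. The age comparison involves no mutant, so that both of its groups carry the same alleles.

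The labels do not say whether the replicates were separate plates or harvests, so the p-values measure only the spread between these arrays, which may be partly technical. They also give no scan date and do not say which arrays were processed together. Seedling age and whatever else set the Col-0 arrays of one age apart from those of the other therefore cannot be told apart. The arrays measure RNA from whole samples, in which fewer cells of a type and less RNA per cell cannot be told apart.

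At this stage a seedling makes and expands its true leaves and lengthens its root. Leaf cells first divide, then enlarge and build up chloroplasts, whose proteins come from both the nucleus and the chloroplast's own genome. Nuclear-encoded and plastid-encoded subunits meet in the photosystems, the ATP synthase and the ribosomes of the organelle. Seedlings also carry a set of fast-responding genes for calcium sensors, WRKY and zinc-finger transcription factors, ubiquitin ligases and wall-modifying enzymes, whose transcripts rise within minutes of touch, wounding, cold or contact with microbes.

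Of the 22746 probe sets, 781 (3.43%) differed between 14 and 12 days at an adjusted p under 0.05 in limma with Benjamini-Hochberg adjustment, on log2(signal + 50). At 14 days 599 (2.63%) were higher and 182 (0.8%) were lower. The rises were also larger: 426 of the 599 but 71 of the 182 were 2-fold or more, and 114 but 11 were 4-fold or more. The median difference of all probe sets was 0.01. An unadjusted p under 0.05 was reached by 3686 probe sets, where 1137.3 would be counted if no probe set differed. The arrays of the 2 ages did not overlap for 5307 probe sets (23.3%) with the 14-day arrays above and for 4685 (20.6%) with the 14-day arrays below, together 43.9%. Of the called probe sets, 294 higher and 94 lower are paired with 1 gene, and 45 and 34 of these have a gene symbol beyond their locus code. Genes known here by locus code alone are named without a role.

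**Figure D1:**
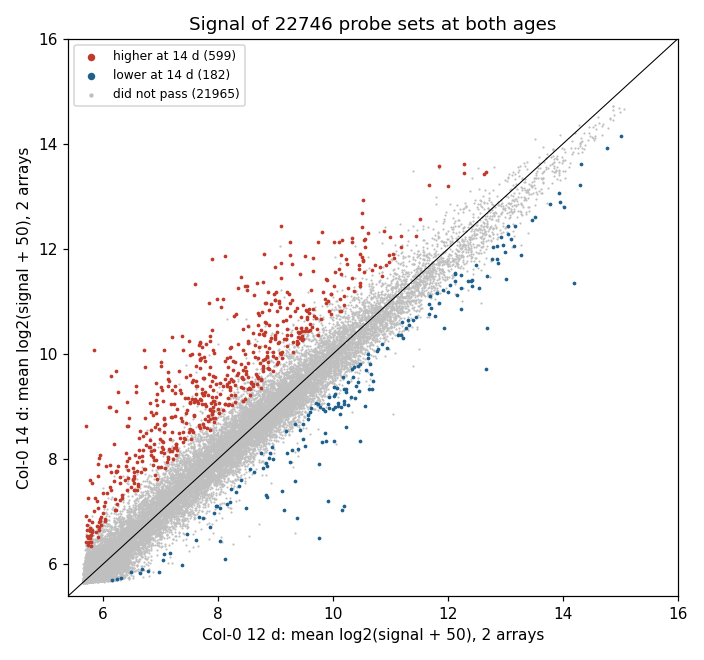
Mean log2(signal + 50) of 22746 probe sets in Col-0 at 14 days (vertical) and at 12 days (horizontal), 2 arrays each; the line marks equal values. The 599 probe sets higher at 14 days lie above the cloud at low and middle signals, the 182 lower ones lie below it, and the brightest probe sets as a whole sit slightly under the line.

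The calls depend on the arrays to an unequal degree. Replicate arrays differed by an SD of 0.25 on the log2 scale in Col-0 at 14 days and of 0.53 in Col-0 at 12 days, the widest of the 6 groups. At 14 days 51 probe sets were more than 2-fold apart between replicates, and at 12 days 1326 were. Replicate 1 of Col-0 at 12 days correlated more closely with replicate 1 of Col-7 at 12 days (r = 0.984 across probe sets) than with its own replicate 2 (r = 0.960). Because all 6 groups share 1 estimate of the spread, with 6 residual degrees of freedom, the narrow groups narrow the error of the wide one. That estimate takes deviations as independent between groups, although same-numbered arrays of Col-0 and Col-7 at 12 days deviated together (r = 0.447). A fit of the 4 Col-0 arrays alone, with 2 residual degrees of freedom, called 0 probe sets, with 2761 at an unadjusted limma p under 0.05. An exact permutation test of 2 arrays against 2 cannot give a p below 0.333. Without replicate 1 of Col-0 at 14 days 82 probe sets passed, and without replicate 2 at 14 days 249. Without replicate 1 at 12 days 936 passed, of which 504 were among the 781, and without replicate 2 at 12 days 1153, of which 542 were. The number that passed with each of the 4 arrays left out in turn was 77, made of 70 higher and 7 lower.

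**Figure D2:**
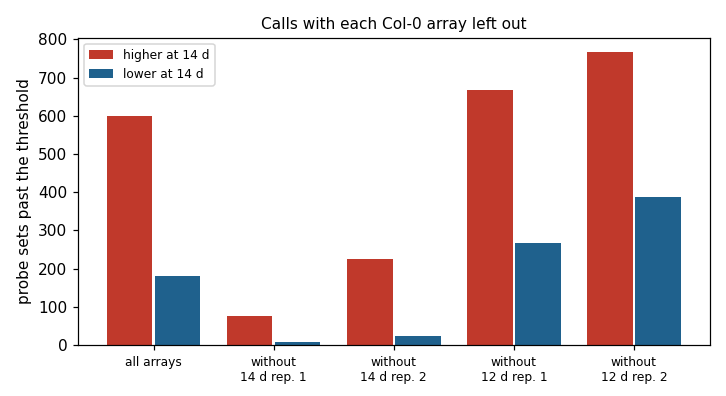
Number of probe sets past the threshold, higher (red) and lower (blue) at 14 days, with all arrays and with each Col-0 array left out. Leaving out either 14-day array cuts the calls to 82 and 249, and leaving out either 12-day array raises them to 936 and 1153.

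The direction of the calls can be set beside the difference between ein2 at 14 days and Col-7 at 12 days. It is taken between other arrays than the Col-0 difference, although those arrays entered the shared estimate of the spread, and it spans genotype as well as age. The Col-7 arrays are also not independent of the Col-0 arrays at 12 days: the deviations of same-numbered replicates from their group means correlated with r = 0.447. It had the same sign for 577 of the 599 higher and 178 of the 182 lower probe sets, while 52.0% of all probe sets had a positive sign. Its median was 0.87 over the higher set and -0.87 over the lower set, against 1.29 and -0.91 in Col-0 itself. In 329 of the 599 and 138 of the 182, all 4 arrays at 14 days lay beyond all 8 arrays at 12 days. These counts include the Col-0 arrays that chose the probe sets, which did not overlap in any of the 781, and are a description. The share among all probe sets was not counted, so here and below called groups are set only beside other calls. Across all probe sets the 2 differences correlated with r = 0.666 and rho = 0.559, which is given as a description, since probe sets are not independent replicates. These numbers say where each call also appears in other 14-day and 12-day seedlings, and they cannot separate age from processing if arrays of 1 age were handled together.

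The largest rises among probe sets paired with 1 gene were led by genes known by locus code. AT4G29780 had signals of 2814 and 2261 at 14 days, against 172 and 119 at 12 days, a log2 difference of 3.73 ± 0.63 (SE; adjusted p = 0.0119, limma). AT2G22880 had 810 and 641 at 14 days, against 9.90 and 32.6 at 12 days, a difference of 3.45 ± 0.35 (SE; adjusted p = 0.00109, limma). In other 12-day seedlings both genes reached higher levels, with 1334 and 240 for AT4G29780 in Col-7 and 970 and 486 for AT2G22880 in aba2. Against Col-7 the call of AT4G29780 was lost (2.02, adjusted p = 0.117, limma). The third, OCT1, a plasma-membrane transporter of organic cations such as carnitine, had 918 and 1145 at 14 days, against 2.77 and 162 at 12 days. Its log2 difference was 3.34 ± 0.63 (SE; adjusted p = 0.0195, limma). It dropped to 2.34 (adjusted p = 0.053, limma) without replicate 1 of Col-0 at 12 days, and it passed in 1 of 4 cases with an array left out. OCT1 was near the bottom of the scale on replicate 1 of Col-0 and well above it on replicate 2, and the same split appeared in Col-7, at 2.97 and 147, while ein2 at 14 days had 955 and 796. OCT1 was thus high on all 4 arrays at 14 days and lower on all 8 at 12 days.

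The next 9 rises lay between 2.84 and 3.07. They were AT2G24600, AT3G02840, AT5G17350, AT3G10930, AT1G15010, XTH18, AT3G04640, AT5G17340 and AT2G27080. AT5G17340 was near the floor of the array on every 12-day array, with 399 and 529 at 14 days, against 12.0 and 27.5 in Col-0 at 12 days and no more than 25.8 on the other 6 arrays of that age. AT3G04640 had 2802 and 2084 at 14 days, against 332 and 230 in Col-0 at 12 days, but 1658 and 675 in Col-7 at 12 days. The 12 largest rises kept their direction in ein2 at 14 days against Col-7 at 12 days in 12 of 12 cases. In 6 of them all 14-day arrays were above all 12-day arrays. Among all 599 higher calls these counts were 577 and 329. With replicate 1 or 2 at 14 days left out 4 and 8 of the 12 passed, and without replicate 1 or 2 at 12 days 11 and 11.

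Among called genes with a symbol, which were grouped by role after their values had been seen, 1 group was of stress signalling and defence. It held 17 of the 45 higher probe sets with a symbol, all higher at 14 days by construction of the group, with log2 differences between 1.05 and 2.70. Calcium sensing was represented by CML38 and CML37, calmodulin-like proteins whose transcripts respond to wounding. CML38 had 3064 and 1761 at 14 days, against 273 and 364 at 12 days, a difference of 2.70 ± 0.36 (SE; adjusted p = 0.00443, limma). CML37 had 166 and 111 at 14 days, against 10.7 and 1.80 at 12 days, where it was close to the floor of the array. SRC2, a C2-domain protein that binds membranes and responds to cold, had 13943 and 10587 at 14 days, against 3563 and 3705 at 12 days, a difference of 1.73 ± 0.16 (SE; adjusted p = 0.00106, limma).

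Of the transcription factors, WRKY53 and WRKY22 act in defence, and WRKY53 also in the onset of leaf senescence. WRKY53 had 683 and 689 at 14 days, against 91.8 and 87.9 at 12 days, a difference of 2.4 ± 0.22 (SE; adjusted p = 0.00106, limma). Its replicates nearly coincided at each age, and the groups were over 5-fold apart on the scale with the offset (5.26). WRKY22 had 1307 and 869 at 14 days, against 132 and 431 at 12 days. Its difference of 1.92 (adjusted p = 0.0388, limma) dropped to 1.22 (adjusted p = 0.1) without replicate 1 of Col-0 at 12 days, so that 1 array set much of its size. BZIP60, a factor activated by stress in the endoplasmic reticulum, had 1493 and 1271 at 14 days, against 478 and 608 at 12 days. NAI1, which drives the formation of endoplasmic-reticulum bodies that store defence enzymes, had 472 and 500 at 14 days, against 190 and 230 at 12 days.

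PUB22 and PUB23, ubiquitin ligases that together damp the immune response, moved in parallel. PUB22 had 693 and 501 at 14 days, against 107 and 59.9 at 12 days, a difference of 2.29 ± 0.26 (SE; adjusted p = 0.0024, limma). PUB23 had 1220 and 769 at 14 days, against 174 and 137 at 12 days, a difference of 2.32 ± 0.27 (SE; adjusted p = 0.00241, limma). The tetraspanins TET8 and TET9, membrane-organising proteins of which TET8 marks plant exosomes, rose by 2.19 and 1.09. TET8 had 7222 and 5990 at 14 days, against 1362 and 1442 at 12 days. The remaining members were PTI1-4, a protein kinase (1.37), RALFL33, a secreted peptide of the RALF family that alkalinises the wall space (1.24), GRX480, a glutaredoxin that binds TGA factors (1.06), and OPCL1, a ligase of jasmonate synthesis in peroxisomes (1.62). BGLU28, a beta-glucosidase (2.52), and JAL33, a jacalin-type lectin (1.2), complete the group.

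The 17 genes stood to the other 12-day seedlings much as all higher calls did. In all 17 both Col-0 arrays at 14 days were above both Col-7 arrays at 12 days, and 580 of the 599 higher calls were above all 4 wild-type arrays of that age. Of the 17, 10 passed the test against Col-7. In 9 of 17, and in 329 of the 599 higher calls, all 4 arrays at 14 days were above all 8 at 12 days, among them CML38, PUB23, SRC2, BGLU28, JAL33 and NAI1. WRKY53 was not one of these: its 328 and 417 in Col-7 at 12 days lay between the 2 ages of Col-0, its difference against Col-7 was 0.81 (adjusted p = 0.0762, limma), and aba2 at 12 days had 849 and 522, about the range of Col-0 at 14 days. TET8 likewise had 4073 and 2451 in Col-7 and 6183 and 4240 in aba2 at 12 days, whereas etr1 at 12 days had 1391 and 1653. For WRKY53 and TET8 the Col-0 arrays at 12 days, like those of etr1, were at the low end of what seedlings of that age showed. Also outside the 9 were BZIP60, PTI1-4, TET9 and OPCL1. Their signals in aba2 at 12 days were 1304 and 1440, 1394 and 1534, 73.4 and 68.7, and 1124 and 1006. These were near or above their level in Col-0 at 14 days. SRC2, although 1 of the 9, had 7848 and 7555 in Col-7 at 12 days, against 3563 and 3705 in Col-0. Against Col-7 its difference was 0.65 and its call was lost (adjusted p = 0.0611, limma). Its lower signal in ein2 at 14 days was 9741, beside 9604 on replicate 1 of aba2 at 12 days. When replicate 1 or 2 at 14 days was left out, 6 and 12 of the 17 passed, without replicate 1 or 2 at 12 days 14 and 17. WRKY53, PUB22, PUB23, TET8, SRC2 and OPCL1 passed in all 4 cases.

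**Figure D3:**
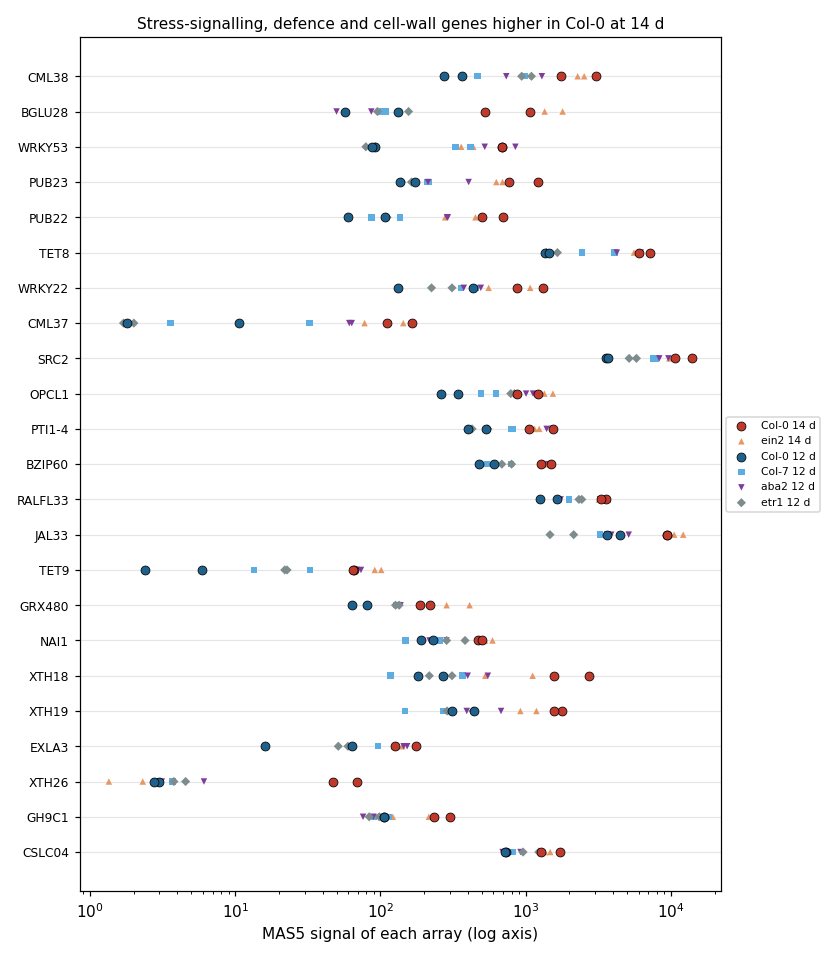
MAS5 signal (log axis) on each of the 12 arrays for the stress-signalling, defence and cell-wall genes that were higher in Col-0 at 14 days, with Col-0 in large outlined circles (red 14 days, blue 12 days) and the other groups in small marks. The Col-0 circles of the ages are apart for every gene, while the 12-day marks of Col-7 lie between them for WRKY53 and TET8 and beside the 12-day circles for BGLU28 and CSLC04.

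Wall-modifying genes formed a second group of rises. Xyloglucan endotransglucosylases cut and rejoin the xyloglucan chains that tether cellulose, and XTH18, XTH19 and XTH26 are expressed mainly in roots. XTH18 had 2736 and 1556 at 14 days, against 182 and 270 at 12 days, a difference of 2.95 ± 0.46 (SE; adjusted p = 0.00796, limma). XTH19 had 1768 and 1560 at 14 days, against 441 and 311 at 12 days, a difference of 2.02 ± 0.31 (SE; adjusted p = 0.00732, limma). XTH26 had 47.2 and 69.3 at 14 days, against 2.97 and 2.76 at 12 days, a difference of 1.03 ± 0.12 (SE; adjusted p = 0.00263, limma). XTH26 was dim even at 14 days, and its 2.31 and 1.35 in ein2 at 14 days lay at the 12-day level. In ein2 at 14 days XTH18 had 527 and 1116, and XTH19 had 1185 and 919. EXLA3, an expansin-like protein, rose by 1.2, with 177 and 125 at 14 days. In aba2 at 12 days EXLA3 had 144 and 153, and against Col-7 its call was lost (0.62, adjusted p = 0.22, limma). Without replicate 1 of Col-0 at 12 days its difference was 0.81. GH9C1, an endoglucanase of root hairs, rose by 1.02, and CSLC04, the synthase of the xyloglucan backbone, by 0.98. Without replicate 1 or 2 at 14 days 1 and 4 of these 6 passed, and without replicate 1 or 2 at 12 days 4 and 5.

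The xyloglucan endotransglucosylase family had 9 measured members, of which 3 rose, 0 fell and 6 did not pass, with a median of 0.67 beside 0.01 for all probe sets. XTH33 at 0.94 (adjusted p = 0.154, limma) and XTH16 at 0.67 (adjusted p = 0.27, limma) came next without passing. Of 18 expansins 1 rose, and the family median was 0.14. Among all probe sets 2.63% were called higher. Markers of root tissue were considered beside these genes, since root genes move with the share of root in a sample. PYK10, a major root protein of endoplasmic-reticulum bodies, had 16528 and 14702 at 14 days, against 14648 and 11191 at 12 days (0.28, adjusted p = 0.513, limma). The root-hair expansins EXPA7 and EXPA18 differed by 0.64 and 0.76 (adjusted p = 0.145 and 0.116, limma). All 3 had both 14-day arrays above both 12-day arrays, as 23.3% of all probe sets had, and 0 of 3 passed, and their part in the rise of the XTH genes was not tested.

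A further set of 16 rises concerned transport, metabolism and other roles. TPS-CIN, a root terpene synthase that makes the monoterpene cineole, had 537 and 347 at 14 days, against 42.8 and 10.8 at 12 days, a difference of 2.69 ± 0.26 (SE; adjusted p = 0.00106, limma). It was at most 59.9 on the other 6 arrays at 12 days and had 505 and 377 in ein2 at 14 days. HIS1-3, a linker histone induced by drought and low light, had 1043 and 842 at 14 days, against 109 and 245 at 12 days. FHL, which with FHY1 carries phytochrome A into the nucleus, had 700 and 494 at 14 days, against 90.3 and 139 at 12 days, a difference of 1.97 ± 0.21 (SE; adjusted p = 0.00142, limma). Both genes were higher on all 4 arrays at 14 days than on any at 12 days.

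Sugar transport was represented by SWEET16, which moves sugars across the vacuolar membrane, and SFP2, of the monosaccharide transporter family. SWEET16 had 689 and 645 at 14 days, against 229 and 292 at 12 days, a difference of 1.21 ± 0.20 (SE; adjusted p = 0.011, limma). It was the 1 of 14 measured SWEET genes that passed, where 2.63% of all probe sets were called higher, and the family median was 0.25. SWEET2, a root vacuolar transporter, had 659 and 546 at 14 days, against 341 and 220 at 12 days, and did not pass (1.00, adjusted p = 0.0768, limma). STR18, a cytosolic sulfurtransferase, rose by 1.53, SFP2 by 1.28, GSTU28, a glutathione S-transferase, by 1.13, and CHX20, a cation exchanger of guard cells, by 0.80. Against Col-7 at 12 days SFP2 and GSTU28 did not pass (adjusted p = 0.0524 and 0.0947, limma), while STR18 and CHX20 did. CHX20 had 597 and 607 in Col-0 at 14 days, against 347 and 300 at 12 days, but 365 and 347 in ein2 at 14 days.

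SIS, a salt-induced serine-rich protein, had 1267 and 1483 at 14 days, against 277 and 321 at 12 days, a difference of 2.03 ± 0.26 (SE; adjusted p = 0.00334, limma). Its pattern elsewhere was unlike that of TPS-CIN, since aba2 at 12 days had 3218 and 2639 and Col-7 had 807 and 1217, while ein2 at 14 days had 359 and 484. SIS was therefore lower in ein2 at 14 days than in Col-7 at 12 days, by 1.16 on the log2 scale, and against Col-7 the Col-0 difference was 0.45 (adjusted p = 0.405, limma). WES1, which conjugates auxin and salicylate to amino acids, rose by 1.00 (adjusted p = 0.0339, limma), and by 0.62 (adjusted p = 0.0567) without replicate 1 of Col-0 at 12 days. MSRB5, which repairs oxidised methionine, rose by 0.77 (adjusted p = 0.0443, limma), and by 0.48 (adjusted p = 0.0867) without replicate 2 of Col-0 at 12 days. The group also held AR781 (2.49) and ZCF37 (1.49), whose 2249 and 1810 and 476 and 459 in aba2 at 12 days were near their level in Col-0 at 14 days, as well as SAL2 (1.31) and AAPT2, an enzyme of phospholipid synthesis (0.88). With replicate 1 or 2 at 14 days left out 3 and 6 of the 16 passed, and without replicate 1 or 2 at 12 days 13 and 13.

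The largest fall was that of PDF1.2, a plant defensin that responds to jasmonate and ethylene together. It had 15.2 and 74.6 at 14 days, against 450 and 1460 at 12 days, a difference of -3.27 ± 0.72 (SE; adjusted p = 0.0361, limma). Both ages were uneven between replicates, and it passed in 1 of 4 cases with an array left out, that without replicate 1 at 12 days. The near-identical PDF1.2b had 29.9 and 68.9 at 14 days, against 286 and 1223 at 12 days, and did not pass (-2.75, adjusted p = 0.118, limma). Probe sets for such similar copies may take up each other's transcript. AT4G12490 followed with 63.6 and 101 at 14 days, against 1466 and 811 at 12 days (-3.13 ± 0.59 SE; adjusted p = 0.0191, limma).

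COR15A, a cold-induced protein that protects chloroplast membranes, had 56.2 and 79.7 at 14 days, against 1129 and 322 at 12 days, a difference of -2.50 ± 0.46 (SE; adjusted p = 0.0181, limma). Its neighbour in function COR15B had 51.6 and 86.1 at 14 days, against 289 and 163 at 12 days, without passing (-1.19, adjusted p = 0.0575, limma), while COR47 and LTI30, also of the cold and dehydration response, differed by 0.15 and 0.33. In aba2 at 12 days COR15A had 165 and 99.4, nearer to Col-0 at 14 days than any other 12-day group. CHI, annotated as a chitinase, fell by 1.57 and ATLP-1, a thaumatin-like protein, by 1.01. DFR, which commits flavonoids to anthocyanin, had 63.1 and 177 at 14 days, against 549 and 298 at 12 days, a difference of -1.51 ± 0.32 (SE; adjusted p = 0.0327, limma). All 4 measured genes of flavonoid and anthocyanin synthesis had a negative difference, with a median of -1.02, and DFR was the 1 that passed. Of all 22746 probe sets 0.8% were called lower and 11618 were positive. In ein2 at 14 days DFR had 528 and 566, within its range in wild-type seedlings at 12 days. Of COR15A, PDF1.2, DFR, CHI and ATLP-1, 0 and 1 passed without replicate 1 or 2 at 14 days, and 3 and 4 without replicate 1 or 2 at 12 days.

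The remaining large falls were rpl16 and psaA of the chloroplast genome and AT1G76960, AT1G19960, AT1G56300, AT3G18250 and AT5G62720. AT5G62720 was the most even of them, with 280.5 and 274 at 14 days, against 940.5 and 845 at 12 days, a difference of -1.52 ± 0.14 (SE; adjusted p = 0.00106, limma). All 4 arrays at 14 days were at or below 283 and all 8 at 12 days at or above 733.5. The 12 largest falls had the same sign in ein2 at 14 days against Col-7 at 12 days in 12 of 12 cases. So did 178 of the 182 lower calls as a whole. For DFR and AT1G19960 that difference was only -0.19 and -0.32. AT1G19960 had 844 and 894 in ein2 at 14 days, above both Col-0 arrays at 12 days (758 and 476). In 6 of the 12 all 14-day arrays were below all 12-day arrays, beside 138 of the 182 lower calls. When replicate 1 or 2 at 14 days was left out, 2 and 7 of the 12 passed, and without replicate 1 or 2 at 12 days 8 and 11.

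The chloroplast genome was measured through 69 genes, of which 10 fell, 2 rose and 57 did not pass. Their median difference was -0.54 beside 0.01 for all probe sets, and 53 were negative. Over all 22746 probe sets 0.8% were called lower and 2.63% higher, and 11618 were positive. The median plastid signal was 3167 and 3453 on the arrays at 14 days, against 6036 and 6736 on those at 12 days. The 10 that fell came from several complexes. From photosystem I, the complex that passes electrons to ferredoxin, psaA had 2325 and 3132 at 14 days, against 9857 and 6828 at 12 days (-1.59 ± 0.28 SE; adjusted p = 0.0136, limma). Its partner in the reaction centre, psaB, had 8669 and 10258 at 14 days, against 19988 and 20071 at 12 days (-1.08 ± 0.21 SE; adjusted p = 0.0225, limma). All 5 photosystem I genes had a negative difference with no overlap between the ages, as 20.6% of all probe sets had, and their median was -0.97.

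The ATP synthase genes atpA, atpB and atpE fell by 1.06, 0.87 and 0.85, and the list of 6 had a median of -0.96. atpB had 19050 and 17238 at 14 days, against 32598 and 33673 at 12 days. atpF and atpH had larger differences of -1.26 and -1.60 without passing (adjusted p = 0.0588 and 0.0716, limma), and atpI was level at -0.04. Of the ribosomal proteins, rpl16 fell most, with 1447 and 1329 at 14 days, against 5897 and 7279 at 12 days, a difference of -2.20 ± 0.27 (SE; adjusted p = 0.00304, limma). rps2 and rps4 fell by 1.29 and 1.39, and so did cemA, an envelope protein, by 1.23, and ccsA, which attaches haem to cytochromes, by 0.91. The 15 genes of photosystem II had a median of -0.14 with 0 called in either direction, and psbC came closest at -1.09 (adjusted p = 0.0503, limma).

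Some plastid genes went the other way. rps14, of the small ribosomal subunit, had 254 and 489 at 14 days, against 78.3 and 68.2 at 12 days (1.72 ± 0.40 SE, adjusted p = 0.046, limma). With 1 Col-0 array left out its difference lay between 1.31 and 2.13, and ein2 at 14 days had 486 and 176. Against Col-7 at 12 days its call was lost (1.62, adjusted p = 0.0585, limma). ndhF, of the NADH dehydrogenase-like complex, had 87.0 and 121 at 14 days, against 5.99 and 1.43 at 12 days (1.51 ± 0.23 SE; adjusted p = 0.00796, limma). In the cytochrome b6f complex petD, petN and petG had differences of 1.21, 1.2 and 1.08 and petA, petL and petB of -0.85, -0.84 and -0.15, with 0 of 6 called. The direction followed the brightness of the probe set: the 7 plastid genes with a mean signal under 300 had medians of 1.51 (1 gene, ndhF, under 100) and 0.75 (6 genes from 100 to 300), and the 12 with a mean signal of at least 10000 a median of -0.77.

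A shift with brightness was present beyond the plastid genes. Of all 167 probe sets with a mean signal of at least 10000, 86.2% had a negative difference and the median was -0.28, and for the 848 between 3000 and 10000 the median was -0.18. After quantile normalization, which gives every array the same distribution, these medians were 0.02 and -0.02. The plastid median then moved to -0.41, and 3 of the 10 falls passed, although all 10 kept their direction. In ein2 at 14 days against Col-7 at 12 days the median of the 69 plastid genes was -0.15. For 3 of the 10 falls (atpB, atpE and rpl16) all 4 arrays at 14 days lay below all 8 at 12 days, beside 138 of the 182 lower calls as a whole. Without replicate 1 or 2 at 14 days 1 and 2 of the 10 passed, and without replicate 1 or 2 at 12 days 5 and 7. The 10 nuclear photosynthesis genes measured, of light-harvesting antenna, photosystem and carbon fixation proteins, had a median of -0.38 and 0 passed. LHCB4.3, an antenna protein, had 588 and 765 at 14 days, against 1504 and 1458 at 12 days (-1.09, adjusted p = 0.0646, limma), and PRK, of carbon fixation, differed by 0.04. After quantile normalization the median of these 10 was -0.04.

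**Figure D4:**
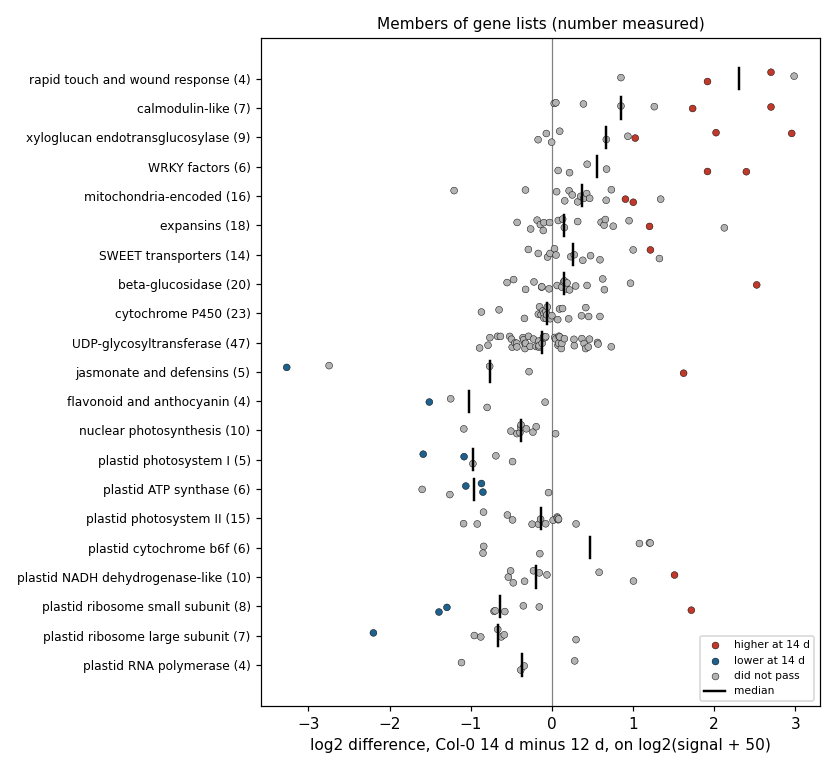
Log2 difference of Col-0 at 14 minus 12 days for the measured members of selected gene lists, with the median as a bar and the number measured in brackets. The rapid touch and wound, calmodulin-like and xyloglucan endotransglucosylase lists lie to the right of 0, photosystem I and ATP synthase to the left, and cytochrome P450 and UDP-glycosyltransferase genes spread around 0.

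A group of 8 called nuclear genes serves other chloroplast functions, and 7 of the 8 also passed after quantile normalization. DPE1, which breaks down maltotriose from starch at night, had 269 and 273 at 14 days, against 716 and 1008 at 12 days, a difference of -1.49 ± 0.18 (SE; adjusted p = 0.00274, limma). It was the 1 gene of this group that passed with each array left out. PIFI, a companion of the NADH dehydrogenase-like complex, fell by 1.13, CHL, a chloroplast lipocalin, by 1.09, and PORB, which makes chlorophyllide in the light, by 1.04. PORB had 3549 and 3544 at 14 days, against 6124 and 8840 at 12 days, but etr1 at 12 days had 3254 and 3750. THIC, of thiamine synthesis, fell by 0.95, Cpn60beta2, a chloroplast chaperonin, by 0.90, PSB27, an assembly factor of photosystem II, by 0.86, and HEME1, of haem and chlorophyll synthesis, by 0.76. In 6 of the 8 all 4 arrays at 14 days were below all 8 at 12 days, a share close to that of all lower calls (138 of 182). With replicate 1 or 2 at 14 days left out 1 and 1 of the 8 passed, and without replicate 1 or 2 at 12 days 4 and 6.

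There were 4 genes of cell division among the falls with a symbol. KINESIN-12B, a motor at the phragmoplast where the new cell plate forms, had 81.2 and 70.1 at 14 days, against 184 and 206 at 12 days, a difference of -0.96 ± 0.18 (SE; adjusted p = 0.0179, limma). 3xHMG-box2, a protein of mitotic chromosomes, had 408 and 418 at 14 days, against 1123 and 1008 at 12 days, a difference of -1.27 ± 0.20 (SE; adjusted p = 0.00796, limma). TOPII, the topoisomerase that untangles chromosomes, fell by 0.70 and UBC20, a ubiquitin-conjugating enzyme of dividing cells, by 0.68. All 4 genes were lower on all 4 arrays at 14 days than on any of the 8 at 12 days, as were 138 of the 182 lower calls. All 4 passed after quantile normalization. Against Col-7 at 12 days 3 of the 4 passed, and TOPII did not (-0.36, adjusted p = 0.289, limma). The 2 division genes of the list matched by locus code, AUR1 at -0.45 and PRL at -0.11, did not pass (adjusted p = 0.277 and 0.882, limma). When replicate 1 or 2 at 14 days was left out, 0 and 0 of the 4 passed, and without replicate 1 or 2 at 12 days 3 and 2.

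**Figure D5:**
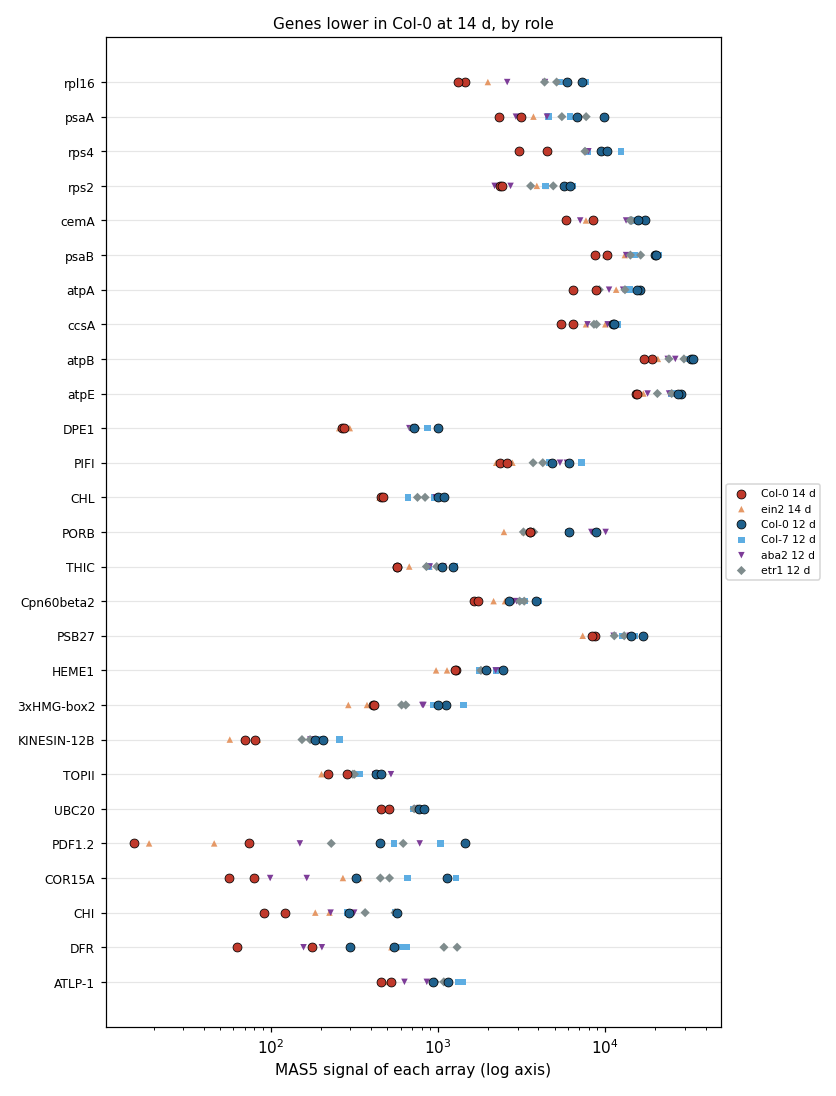
MAS5 signal (log axis) on each of the 12 arrays for genes lower in Col-0 at 14 days, from plastid-encoded genes at the top to chloroplast proteins of nuclear genes, cell division and the cold, defence and pigment genes. Red circles (Col-0 14 days) lie left of blue circles (Col-0 12 days) for every gene, and for the 4 division genes the marks of ein2 at 14 days also lie left of all 12-day marks.

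Single genes of other roles were lower too. GI, a component of the circadian clock whose transcript peaks late in the day, had 432 and 478 at 14 days, against 897 and 954 at 12 days, a difference of -0.95 ± 0.16 (SE; adjusted p = 0.011, limma). Against Col-7 at 12 days, which had 643 and 559, the difference was -0.36 and the call was lost (adjusted p = 0.25, limma). In etr1 at 12 days GI had 600 and 464. STOMAGEN, a leaf peptide that promotes stomata, fell by 0.66, WLIM2a, which bundles actin, by 0.86, and MAP1C, an organellar methionine aminopeptidase, by 1.36. STOMAGEN had 743 and 829 in etr1 at 12 days, below its 837 and 868 in Col-0 at 14 days. UPP, of pyrimidine salvage, fell by 1.06, HISN5B, of histidine synthesis, by 0.65, and LSM6A, of messenger RNA turnover and splicing, by 0.65. In 5 of these 7, and in 138 of the 182 lower calls, all 14-day arrays were below all 12-day arrays. Without replicate 1 or 2 at 14 days 0 and 1 of the 7 passed, and without replicate 1 or 2 at 12 days 5 and 4.

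Mitochondrial genes leaned upward. Of 16 mitochondria-encoded genes measured 2 rose, 0 fell and 14 were positive, with a median of 0.37. Over all 22746 probe sets 2.63% were called higher and 11618 were positive. nad4L, of respiratory complex I, had 208 and 220 at 14 days, against 105 and 77.7 at 12 days (0.91 ± 0.18 SE; adjusted p = 0.0225, limma). ccb452, of cytochrome c assembly, had 556 and 543 at 14 days, against 201 and 306 at 12 days (1.00 ± 0.18 SE; adjusted p = 0.0164, limma), on a probe set that can take up similar transcripts. nad1, also of complex I, is covered by several probe sets: 2 of them rose by 1.09 and 0.87, and the brightest, which stands for the gene in the list, differed by 0.73 without passing (adjusted p = 0.218, limma). All 4 called probe sets, 2 of them for nad1, had all arrays at 14 days above all at 12 days, as had 329 of the 599 higher calls. With replicate 1 or 2 at 14 days left out 0 and 0 of these 4 passed, and without replicate 1 or 2 at 12 days 3 and 2. The median of the list was 0.19 without replicate 1 and 0.53 without replicate 2 of Col-0 at 12 days, and the values are dim enough to move with the offset, at 0.60 with an offset of 10 and 0.22 with 150.

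The lists of fast-responding genes had few measured members and were written with earlier results of these data known. Of 40 listed rapid touch and wound genes 4 were measured. Of these 4, 2 rose (CML38 and WRKY22), 0 fell and the median was 2.31. Against Col-7 at 12 days the call of WRKY22 was lost (1.31, adjusted p = 0.134, limma). STZ, a zinc-finger repressor induced by salt, cold and wounding, had 4502 and 3993 at 14 days, against 749 and 318 at 12 days, and did not pass (2.98 ± 0.75 SE; adjusted p = 0.0626, limma). Other 12-day arrays bear on it: Col-7 had 2611 and 555, so that its replicates differed more than the 12-day replicates of Col-0. CML42, of trichomes, had 389 and 389 at 14 days, against 196 and 190.5 at 12 days (0.85, adjusted p = 0.0793, limma). All 7 calmodulin-like genes had a positive difference, 2 rose and the median was 0.85. CML23 was next at 1.26 (adjusted p = 0.0583, limma). All 6 WRKY genes were positive, 2 rose and the median was 0.55. Over all 22746 probe sets 11618 were positive and 2.63% were called higher. The lists overlap, since CML38 and WRKY22 are also the 2 genes of the rapid list that rose. Without replicate 1 of Col-0 at 12 days the median of the rapid list was 1.87.

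Other families gave single calls or none, where 2.63% of all probe sets were called higher and 0.8% lower. Of 20 beta-glucosidases, 14 bZIP factors, 11 RALF-like peptides, 12 glutathione S-transferases and 4 jacalin-related lectins 1 each rose and 0 fell, with medians of 0.15, 0.32, 0.11, -0.10 and 0.45. Of 5 jasmonate and defensin genes 1 rose (OPCL1) and 1 fell (PDF1.2). Of 5 auxin genes WES1 rose, of 4 senescence genes WRKY53 rose, and of 3 starch genes DPE1 fell. SAG101, a senescence gene that also acts in immunity, had 192 and 181 at 14 days, against 75.2 and 103 at 12 days, without passing (0.77, adjusted p = 0.0633, limma). Among 47 UDP-glycosyltransferases, 23 cytochromes P450, 22 trichome birefringence-like wall acetylation genes and 10 autophagy genes, limma called 0 in either direction, with medians of -0.12, -0.06, 0.15 and -0.14. UGT76C2, which inactivates cytokinin, came nearest in these families, with 319 and 320 at 14 days, against 191 and 156 at 12 days (0.73, adjusted p = 0.0526, limma). The gibberellin receptor GID1B had 433 and 429 at 14 days, against 196 and 265 at 12 days (0.79, adjusted p = 0.0507, limma), while GID1A and GID1C differed by 0.00 and -0.32. Of 3 ethylene genes 0 passed, and ARL, which promotes cell expansion, was highest at 0.69 (adjusted p = 0.0878, limma).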

How the data were processed

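The deposited numbers are the authors' MAS5 signal intensity per probe set, from Affymetrix's Microarray Suite per the labels' design text, with 1 array for each RNA sample. The values are linear, and each array has a mean of 500.04 to 500.05 after trimming 2% at each end, which limits comparison to relative levels. Detection calls were not used here. The table holds 22810 probe sets, of which 64 controls were left out. Of the rest 13513 are paired with 1 gene in the platform annotation, 503 with several and 8730 are unnamed here. Symbols come from RefSeq (TAIR10.1), in which 13436 were found and 1579 had a symbol beyond the locus code.

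Signals were set to a common trimmed mean, an offset of 50 was added and log2 taken, so that differences of dim probe sets are smaller than the ratio of signals. limma 3.58.1 in R 4.3.3 fitted 6 group means to 12 arrays (eBayes with trend, two-sided, Benjamini-Hochberg over 22746 probe sets, threshold 0.05). The fit was tested on simulated data. Replicate numbers did not pair the Col-0 arrays (correlation of deviations -0.11), although same-numbered arrays deviated together between Col-0 and Col-7 (0.45), Col-0 and aba2 (0.38) and Col-7 and aba2 (0.25) at 12 days.

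Genes named are the 12 largest rises and falls among non-overlapping calls with 1 gene, and per list the members that passed and the 2 with the smallest p otherwise (any member in lists of 6 or fewer). All called genes with a symbol, and their role groups, were added after their values were seen. Members and lists were chosen with earlier results of these data known. Lists were matched by locus code (62 of 508 given genes were measured) or by symbol family. A gene with several probe sets is given in its list by the one with the highest mean signal. Promoter sequence was not analysed here.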

Additional observations from a re-analysis of the deposited data

How the results depend on the processing

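With all arrays 781 probe sets passed, 599 higher and 182 lower at 14 days. Offsets of 10 and 150, quantile normalization, filters at the 40th and 60th percentile of mean signal and eBayes without trend gave between 678 and 885, and Col-7 at 12 days in place of Col-0 gave 765, of which 463 were shared with the 781. Filtering at the 60th percentile tested 9099 probe sets, and 66.1% of its calls were higher, against 76.7% with all. Array quality weights gave 404, made of 342 higher and 62 lower, all among the 781. The 4 Col-0 arrays alone gave 0 in total, 0 higher and 0 lower, where 2 residual degrees of freedom remain. The mean of Col-0 and Col-7 at 12 days gave 1322, of which 426 were lower. Leaving out 1 array gave between 82 and 1153 in total, between 75 and 766 higher and between 7 and 387 lower. No named call changed its sign in any of these alternatives in which it was tested. That outcome was largely fixed in advance, since the Col-0 arrays of the 2 ages did not overlap for any call. Leaving out an array, changing the offset, filtering or weighting the arrays could not reverse a sign.

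The replicate number as a block gave 784, of which 708 were shared with the 781. Since the numbers correlated below -0.1, a crossed pairing of the Col-0 arrays was added after seeing the data and gave 888. Of the 95 named calls, the replicate block lost 5 (rps14, 1 probe set of nad1, HISN5B, LSM6A and TOPII, adjusted p 0.0501 to 0.0598, limma), the crossed pairing 3, quantile normalization 13, Col-7 in place of Col-0 33 and array weights 33. The 4 Col-0 arrays alone lost all 95. Without replicate 1 or 2 at 14 days 78 and 57 were lost, and without replicate 1 or 2 at 12 days 26 and 19. The causes of these shifts were not tested. The number of arrays limits the precision: with 2 per age, 40 of the higher and 11 of the lower calls also rest on mean signals under 100 at both ages.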
